A study of Mus musculus with 36 samples.

Results

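The 10 genes described here are 8 heat shock genes, *Hspa1a*, *Hspa1b*, *Hspa8*, *Hsp90aa1*, *Hsph1*, *Dnajb1*, *Hspd1* and *Hspe1*, and 2 genes of cold-inducible RNA-binding proteins, *Cirbp* and *Rbm3*. They were chosen by name, and each was found as 1 row of the deposited table of 38283 genes. After a filter on low counts, 9 of the 10 were among the 13945 genes tested, and *Hspa1a* was not. The measurements are RNA-seq counts from the livers of 36 male C57Bl/6J mice, all aged 16 weeks and kept on chow. *Pik3r1* encodes the p85alpha regulatory subunit of phosphoinositide 3-kinase, the enzyme that carries the insulin signal to AKT. The mice were either wild-type (WT) or heterozygous for Y657*, a premature stop that also occurs in people with SHORT syndrome and was knocked into the endogenous gene, so that every cell of the mutant mice carries it. Each genotype was sampled fed (ad libitum chow), after a 16 h fast, and after a 16 h fast followed by 6 h of refeeding, which gave 6 groups of 6 mice.

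Heat shock proteins are chaperones that help other proteins to fold. HSP70 proteins (*Hspa1a*, *Hspa1b*, *Hspa8*) bind unfolded stretches with help from J-domain proteins such as DNAJB1 and release them with help from nucleotide exchange factors such as HSPH1. HSP90 proteins such as HSP90AA1 then mature kinases and steroid receptors, and the HSP60 and HSP10 proteins (*Hspd1*, *Hspe1*) form the folding chamber of the mitochondrion. Many of these genes are switched on by the transcription factor HSF1, which binds repeats of GAA in alternating orientation. CIRBP and RBM3 are RNA-binding proteins whose transcripts rise when cells are mildly cooled, and in mouse liver the *Cirbp* transcript and HSF1 targets are known to follow the daily rhythm of body temperature in opposite directions.

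The DNA around the start sites of these genes shows which of them carry such GAA repeats. RefSeq windows on GRCm38.p6, from 250 bases before a start to 50 bases after it, were matched by symbol for 7 of the 10 genes (11 windows). None was matched for *Hspa8*, *Hsp90aa1* and *Rbm3*. A pair of units was searched as GAANNTTC or TTCNNGAA, and 3 units as GAANNTTCNNGAA or TTCNNGAANNTTC, on both strands, so that each run of 3 units also contains both kinds of pair. Of all 32851 windows, 15.1% held a pair and 0.603% held 3 units. The runs below are given 5′ to 3′ on the strand of the named gene, with the units in capitals. The first is the whole upstream part of the *Hspa1b* window (chr17:34959239-34959488, minus strand). The second lies between the RefSeq start of *Hspe1* and 1 of the 2 *Hspd1* starts, in the windows of both (chr1:55088053-55088082, plus strand). The other *Hspd1* start lies past the *Hspe1* start, so the run is inside that longer *Hspd1* span. The last pair comes from before and after the RefSeq starts of *Hsph1* (chr5:149636354-149636377 and chr5:149636284-149636304, minus strand).
*Hspa1b*: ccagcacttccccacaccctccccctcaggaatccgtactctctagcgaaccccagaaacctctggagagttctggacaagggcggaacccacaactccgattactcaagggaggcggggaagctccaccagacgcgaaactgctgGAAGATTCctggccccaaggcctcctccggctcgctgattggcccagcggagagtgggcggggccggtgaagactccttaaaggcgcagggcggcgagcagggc
*Hspe1*: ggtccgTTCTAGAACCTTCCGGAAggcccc
*Hsph1*, before the start: tagaatctTTCTCGAAggctcgag
*Hsph1*, after the start: cagaTTCTGGAAAGTTCtcct
The run of 4 units next to *Hspe1* begins 89 bases before its start. It is shared with 1 window of *Hspd1*, which is transcribed the other way. The *Hspa1b* pair begins 104 bases before the start, and the *Hspa1a* window has the same pair at the same place. Those windows differed at 4 of 300 bases.

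For *Cirbp*, the octamer TCCCCGCC, which is known from its promoter as a cold-responsive element, was searched on both strands. It was found in 5.38% of all windows and in 1 of the 2 *Cirbp* windows, 247 bases before the start. The first 150 bases of that window (chr10:80167589-80167738, plus strand) are shown with the octamer in capitals.
*Cirbp*: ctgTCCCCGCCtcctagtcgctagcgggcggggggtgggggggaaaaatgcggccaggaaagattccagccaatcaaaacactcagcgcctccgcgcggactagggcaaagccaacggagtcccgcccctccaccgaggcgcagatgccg
The same octamer lies on the opposite strand of the *Hspa1a* and *Hspa1b* windows, 137 bases before the start, and in 1 *Dnajb1* window. It overlaps no GAA unit of a matched pair in these windows. A match describes letters only, and no binding was measured.

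Total counts ranged from 8839488 to 19542775 per mouse (median 13596665.5). Summed hepatocyte markers (8 genes, among them *Alb* and *Apoa1*) lay between 54648 and 97195 CPM (read counts set relative to library size, with TMM factors) in every mouse, and summed pancreas markers at no more than 2.44. *Pik3r1* itself was at 135 ± 14.1 CPM in fed WT and 139 ± 25.4 in fed WT/Y657* mice (SD, n = 6 each), and it was not called between genotypes in any state (adjusted p 0.42 to 0.89), so the transcript level does not check the genotype labels. Each mouse is named here by the genotype and number in its label, with MT for WT/Y657*. The numbers are not balanced over the fed genotypes. Fed WT mice were WT_847 to WT_850, WT_856 and WT_860, and fed WT/Y657* mice MT_857 to MT_859, MT_866, MT_868 and MT_869, so that only the run from WT_856 to WT_860 holds both genotypes. Among fasted and among refed mice there was a lower and a higher run of numbers, each with 3 mice per genotype. What the numbers stand for is not given in the labels. Where mouse number is a covariate below, it enters as these runs and not as the number itself. The fed genotypes are then compared only within the run from WT_856 to WT_860. Comparisons of fed WT/Y657* mice with other states also rest on that run. The clock time of collection is not given either, and time of day and feeding state cannot be told apart.

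Compared per kilobase of exon over all mice, the cognate chaperone *Hspa8* was the most abundant of the 10 at 123 CPM per kb, followed by *Hspd1* at 108, *Hspe1* at 85.9 and *Hsp90aa1* at 53.7. *Hsph1* (9.45), *Dnajb1* (8.61), *Rbm3* (5.16) and *Cirbp* (5.04) were lower, the stress-inducible *Hspa1b* stood at 2.31, and *Hspa1a* at 0.16. *Hspa1a* had at most 30 reads in a mouse and none in 6 of the 36. Over the 6 groups together, an F test of any difference (edgeR, Benjamini-Hochberg over all genes) passed for 8 of the 9 genes tested, and *Hspa8* did not pass (adjusted p = 0.17). Of the 50-base runs in their transcripts, 67.3% for *Hspa8*, 50.1% for *Hsp90aa1* and 11.5% for *Rbm3* also occur in other genes, mostly pseudogenes, so their counts are uncertain to that extent, while *Hsph1* and *Cirbp* share none (0%). The spread between mice of a group was smallest for *Hspd1* (coefficient of variation 0.113) and largest for *Hspa1b* (0.584).

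**Figure D1:**
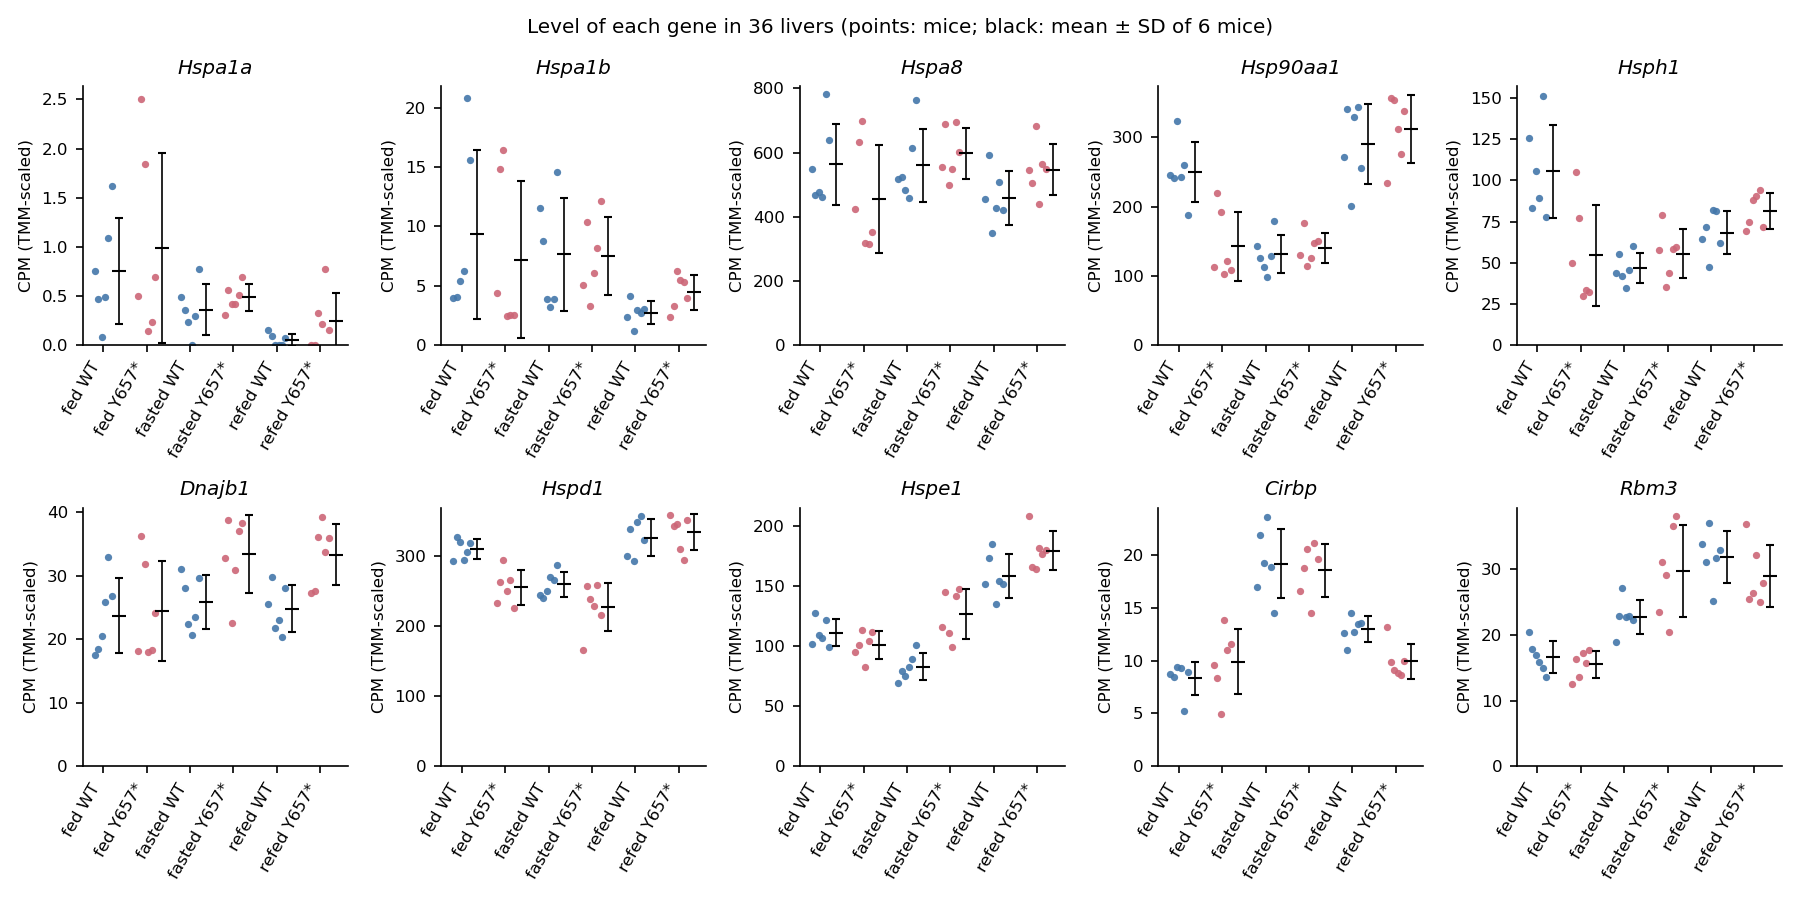
TMM-scaled CPM (linear axis from 0) of each of the 10 genes in the 36 livers, by genotype and feeding state, with 1 point per mouse and the mean ± SD of 6 mice in black. The median of *Hsp90aa1* was lower in fed WT/Y657* and both fasted groups than in fed WT and both refed groups. Fed MT_858 and MT_859 lay inside its fed WT range. *Cirbp* was highest in fasted mice, and *Hspa1b* split within the fed groups.

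*Hsp90aa1* (ENSMUSG00000021270, chr12:110690605-110702728 on GRCm38), the stress-inducible cytosolic HSP90, fell with fasting in WT mice and not detectably in WT/Y657* mice, and rose with refeeding in both. In fed WT mice its lowest, median and highest levels were 188, 244 and 323 CPM. In fasted WT mice they were 98.8, 127 and 179, and in refed WT mice 201, 300 and 343. Every fasted WT mouse was below every fed and every refed WT mouse. In the mutants the lowest, median and highest levels were 102, 117 and 219 CPM fed, 114, 138 and 176 fasted, and 234, 325 and 357 refed. Here fed and fasted mice overlapped fully, and every refed mouse was above both. In WT mice the level fell by 0.93 on the log2 scale with fasting (SE 0.17, adjusted p = 8.3e-05) and rose by 1.14 with refeeding (SE 0.17, adjusted p = 5.2e-06). For WT/Y657* mice the log2 change with fasting was -0.02 (SE 0.17, adjusted p = 0.94), and with refeeding the level rose by 1.15 (SE 0.17, adjusted p = 4.3e-06). These adjusted p-values, and all that follow, come from quasi-likelihood tests in edgeR, two-sided and adjusted after Benjamini-Hochberg over all 13945 genes, with n = 6 mice per group and a threshold of 0.05, unless another fit is named. The fasting and refeeding comparisons share the fasted mice. In bulk liver RNA, less RNA per cell and fewer cells of a type cannot be told apart.

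*Hsph1* (ENSMUSG00000029657, chr5:149614287-149636376), the HSP110 exchange factor for HSP70, followed *Hsp90aa1* on fasting. It was at 77.9 to 151 CPM in fed WT mice (median 97.5) and at 34.6 to 60.3 in fasted WT mice (median 44.6), with no overlap, and fell by 1.17 on the log2 scale (SE 0.25, adjusted p = 0.00044). Among WT/Y657* mice the fed range of 29.6 to 105 CPM (median 41.4) contained the whole fasted range of 35.2 to 79.2 (median 58.0), and the log2 change was 0.03 (SE 0.25, adjusted p = 0.94). Refed levels were 47.4 to 82.0 CPM in WT and 69.0 to 94.4 in WT/Y657* mice. The refeeding change was 0.54 in WT (SE 0.25, adjusted p = 0.096) and 0.55 in WT/Y657* mice (SE 0.25, adjusted p = 0.086), and was called in neither.

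*Hspa8* (ENSMUSG00000015656, chr9:40800984-40810087) and *Dnajb1* (ENSMUSG00000005483, chr8:83608193-83612653) moved little with feeding state. The group means of *Hspa8* lay between 456 and 598 CPM, and none of the feeding comparisons passed the test in either genotype (adjusted p 0.079 to 0.98). *Dnajb1* was not called in any WT comparison. It rose with fasting in WT/Y657* mice from 24.5 ± 7.91 to 33.4 ± 6.16 CPM (log2 change 0.45, SE 0.17, adjusted p = 0.037), and it stayed at 33.3 ± 4.85 after refeeding. The groups overlapped, since 3 of 6 fasted mice were above every fed mouse. That call was lost without any 1 of 8 mice (fed MT_857, MT_866, MT_868 or MT_869, fasted MT_806, MT_826, MT_922 or MT_923), with log2 changes of at least 0.38 and adjusted p of up to 0.099. In the same genotype refed mice were also above fed ones (log2 difference 0.45, SE 0.17, adjusted p = 0.044). This call of *Dnajb1* too was lost without any 1 of 8 mice (fed MT_857, MT_866, MT_868 or MT_869, refed MT_817, MT_897, MT_898 or MT_899), with adjusted p of up to 0.114, and with no filter on low counts (adjusted p = 0.10).

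The stress-inducible HSP70 genes lie near each other on chromosome 17 (*Hspa1b*, ENSMUSG00000090877, chr17:34956436-34959238, and *Hspa1a*, ENSMUSG00000091971, chr17:34969190-34972156), and were lowest in refed WT mice. Reads divide between them uncertainly, since 62.3% of the 50-base runs in *Hspa1b* transcripts also occur in transcripts of other genes, first of all *Hspa1a*. *Hspa1b* was at 3.93 to 20.8 CPM in fed WT mice (median 5.79), 3.20 to 14.6 in fasted WT (median 6.32) and 1.13 to 4.14 in refed WT (median 2.82). Between fasted and refed WT mice it fell by 1.49 on the log2 scale (SE 0.53, adjusted p = 0.033). The refed WT level was also below the fed one by 1.76 (SE 0.53, adjusted p = 0.013). The call against fasted mice was lost without any 1 of 7 mice (fasted WT_807, WT_824 or WT_920, refed WT_815, WT_828, WT_896 or WT_900), with log2 changes down to -1.20 and adjusted p of up to 0.104, and the call against fed mice was lost without fed mouse WT_856 (-1.37, adjusted p = 0.055). Among WT/Y657* mice the refed range of 2.38 to 6.20 CPM lay within the fed range of 2.44 to 16.4 but for its lowest mouse, and no feeding comparison passed the test (adjusted p 0.29 to 0.94). Summed over 6 mice, *Hspa1a* had 58 reads in fed, 28 in fasted and 4 in refed WT mice, and 82, 35 and 22 in WT/Y657* mice. In a fit with no filter on low counts its level fell between fed and refed WT mice (log2 change -3.78, SE 0.85, adjusted p = 0.0014). The same fit called the fall between fed and refed WT/Y657* mice (-1.93, SE 0.65, adjusted p = 0.043). The fits with 1 mouse left out kept the filter, so they are not this fit with 1 mouse fewer. In them the fall was not called without any 1 of refed MT_810, MT_814 or MT_899. With so few reads both log2 changes are imprecise. With reads of both genes summed, the refeeding change in WT mice was -1.53 (SE 0.54, adjusted p = 0.030).

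*Hspd1* and *Hspe1*, the genes of mitochondrial HSP60 and its HSP10 lid, stand head to head with overlapping spans on chromosome 1 (ENSMUSG00000025980, chr1:55077835-55088243, minus strand, and ENSMUSG00000073676, chr1:55088132-55091307, plus strand). The run of GAA units shown above lies in a window of each. Both rose with refeeding in both genotypes, but on fasting *Hspe1* fell in WT and rose in WT/Y657* mice. The lowest, median and highest *Hspe1* levels were 99.2, 108 and 128 CPM in fed WT, 69.7, 80.7 and 101 in fasted WT, and 135, 153 and 185 in refed WT mice. The values of WT/Y657* mice were 82.4, 102 and 113 CPM fed, 99.1, 129 and 148 fasted, and 164, 178 and 208 refed. Refed mice were above all fed and fasted mice of their genotype, and 5 of 6 fasted WT/Y657* mice were above every fasted WT mouse. In WT mice *Hspe1* fell by 0.42 on the log2 scale with fasting (SE 0.10, adjusted p = 0.00090) and rose by 0.93 with refeeding (SE 0.10, adjusted p = 3.4e-09). It rose in WT/Y657* mice by 0.32 with fasting (SE 0.10, adjusted p = 0.0095) and by 0.50 with refeeding (SE 0.10, adjusted p = 0.00011). The rise with fasting in WT/Y657* mice was not called with mouse number as a covariate (log2 change 0.27, adjusted p = 0.41).

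*Hspd1* was at 292 to 327 CPM in fed WT (median 312), 240 to 286 in fasted WT (median 257) and 292 to 357 in refed WT mice (median 330). WT/Y657* mice were at 226 to 295 CPM fed (median 256), 165 to 259 fasted (median 233) and 294 to 358 refed (median 344). Refed mice did not overlap fasted mice in either genotype. It fell with fasting in WT mice (log2 change -0.26, SE 0.08, adjusted p = 0.016), changed by -0.17 in WT/Y657* mice (SE 0.08, adjusted p = 0.11), and rose with refeeding by 0.33 in WT (SE 0.08, adjusted p = 0.0021) and by 0.56 in WT/Y657* mice (SE 0.08, adjusted p = 2.1e-06).

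The partner counts were also compared within each liver, as *Hspe1* reads in percent of *Hspd1* reads, a measure that needs no scaling and was chosen after their values were seen. In fasted WT mice the lowest, median and highest percentages were 28.5, 31.7 and 35.4, and in fasted WT/Y657* mice 43.4, 55.7 and 69.9, with no overlap. The means were 31.9% ± 2.58 and 56.7% ± 10.9 (SD, n = 6 each). The mean log2 ratio was 0.81 higher in WT/Y657* mice (exact permutation test, two-sided, p = 0.0022, the smallest that 6 against 6 mice can give, and 0.0065 after Benjamini-Hochberg adjustment over the 3 states). Within the lower and the higher run of mouse numbers the difference was 0.90 and 0.72, and 3 against 3 mice cannot reach an exact permutation p below 0.1. In fed mice the means were 35.9% ± 3.22 and 39.9% ± 5.38, and in refed mice 49.0% ± 8.45 and 54.0% ± 5.58 (SD, n = 6 each), with an adjusted exact permutation p of 0.22 in both states. Of the 50-base runs in their transcripts, 39.7% for *Hspd1* and 36.1% for *Hspe1* also occur in other genes, mostly pseudogenes, so the division of reads is uncertain for both. The annotated spans of these genes also overlap on opposite strands, and the deposited counts give both the same locus (chr1:55077835-55091307). Whether counting used strand is not given, so the division of reads between them, and with it the ratio, is uncertain too.

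**Figure D2:**
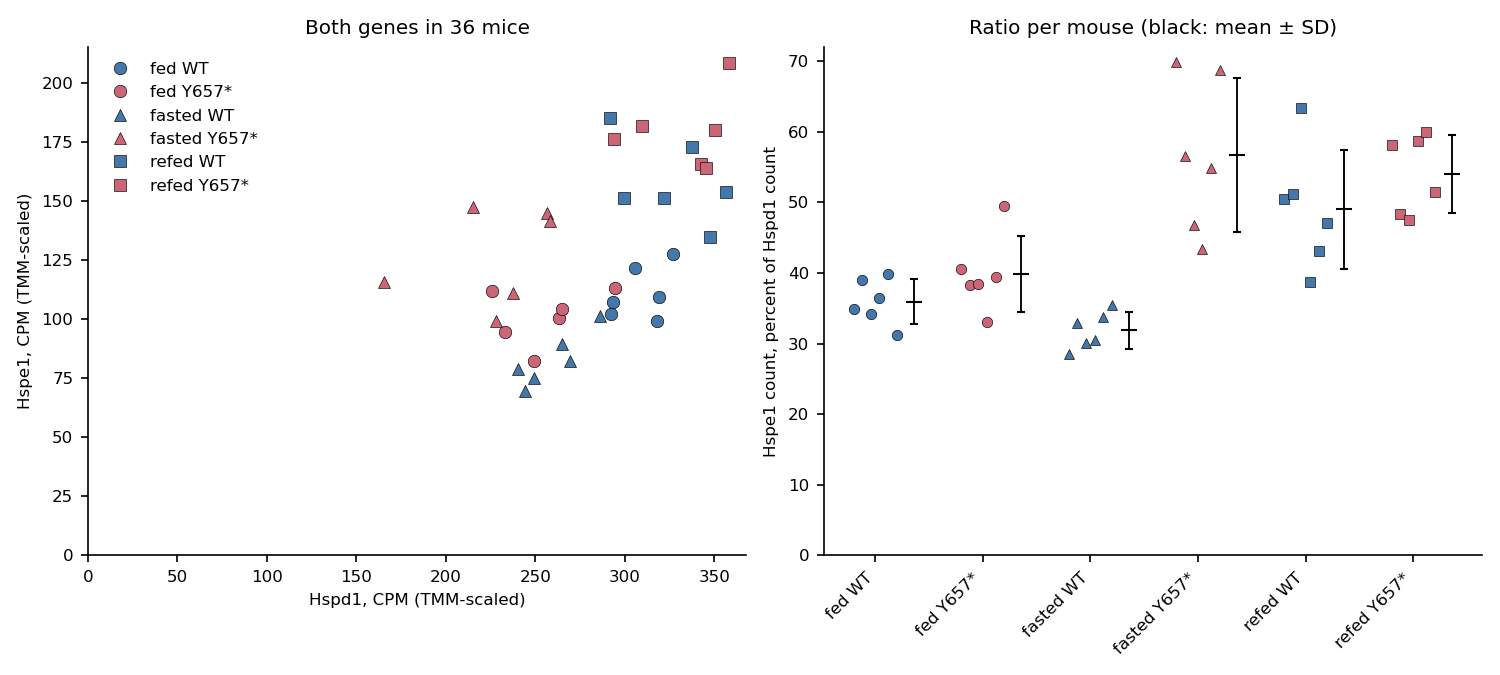
*Hspe1* against *Hspd1* in TMM-scaled CPM (left) and *Hspe1* reads in percent of *Hspd1* reads (right, mean ± SD of 6 mice in black), with 1 point per mouse and linear axes from 0. On the right the 6 fasted WT/Y657* mice sit between 43.4% and 69.9%, all above the 6 fasted WT mice at 28.5% to 35.4%.

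*Cirbp* (ENSMUSG00000045193, chr10:80165985-80172786) rose with fasting and fell with refeeding in both genotypes. Its lowest, median and highest levels in WT mice were 5.27, 8.79 and 9.38 CPM fed, 14.5, 19 and 23.5 fasted, and 11, 13.1 and 14.5 refed. In WT/Y657* mice they were 4.90, 10.3 and 13.9 CPM fed, 14.5, 19.2 and 21.1 fasted, and 8.66, 9.48 and 13.2 refed. Every fasted mouse was above every fed and every refed mouse of its genotype. With fasting *Cirbp* rose by 1.20 on the log2 scale in WT (SE 0.16, adjusted p = 2.0e-07) and by 0.90 in WT/Y657* mice (SE 0.16, adjusted p = 1.9e-05). With refeeding it fell by 0.56 in WT (SE 0.15, adjusted p = 0.0046) and by 0.90 in WT/Y657* mice (SE 0.16, adjusted p = 2.4e-05). Refed WT mice stayed above all fed WT mice (log2 difference 0.63, SE 0.16, adjusted p = 0.0028), while in WT/Y657* mice the difference was 0.01 (SE 0.16, adjusted p = 0.98). The genotype difference in either response was not called (-0.29, adjusted p = 0.50, for fasting and -0.33, adjusted p = 0.50, for refeeding).

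*Rbm3* (ENSMUSG00000031167, chrX:8138975-8145880) also rose with fasting, but it did not return with refeeding. In WT mice its lowest, median and highest levels were 13.5, 16.4 and 20.5 CPM fed, 18.9, 22.8 and 27.1 fasted, and 25.1, 32.3 and 37.1 refed. In WT/Y657* mice they were 12.5, 16.0 and 17.7 CPM fed, 20.4, 30.1 and 38.1 fasted, and 25, 27.1 and 36.9 refed. Refed mice of each genotype were above all of its fed mice. The rise with fasting was 0.45 on the log2 scale in WT (SE 0.13, adjusted p = 0.0059) and 0.94 in WT/Y657* mice (SE 0.13, adjusted p = 3.2e-07). The WT rise was not called with mouse number as a covariate (0.36, adjusted p = 0.064) or without the 5 fed mice from WT_856 to WT_860 (0.34, adjusted p = 0.065). With refeeding *Rbm3* rose further in WT mice (0.49, SE 0.13, adjusted p = 0.0028), and in WT/Y657* mice the log2 change was -0.04 (SE 0.12, adjusted p = 0.85). The genotype difference in the fasting response was 0.48 (adjusted p = 0.12) and that in the refeeding response -0.53 (adjusted p = 0.11), and neither was called.

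Counted over the 9 genes tested, fasting called 6 in WT mice, where 32% of all genes were called (2 higher, 4 lower, median log2 change -0.26), and 4 in WT/Y657* mice, where 32.9% were (4 higher, 0 lower, median 0.32). Refeeding called 6 in WT (4 higher, 2 lower, against 30.2% of all genes) and 4 in WT/Y657* mice (3 higher, 1 lower, against 31.3%). Between refed and fed mice 4 were called in WT (3 higher, 1 lower, against 27.5%) and 5 in WT/Y657* mice (5 higher, 0 lower, against 26.1%). The median log2 change of all genes was within 0.1 of 0 in each of these fits.

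**Figure D3:**
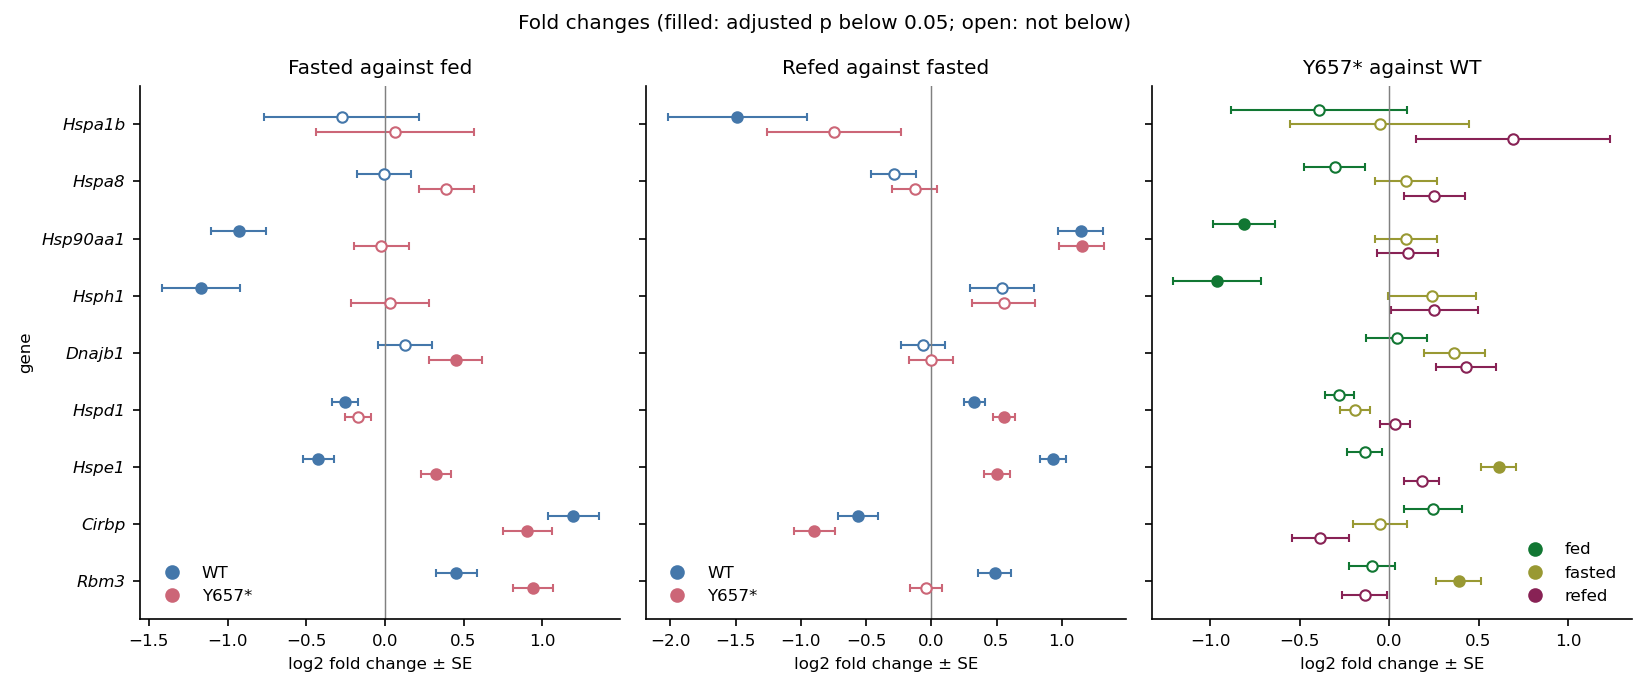
Fitted log2 fold change ± SE (x axis) of each of the 9 genes tested, for fasting and refeeding by genotype in the first panels and for WT/Y657* against WT by state in the last (n = 6 mice per group), with filled points where adjusted p was below 0.05. With fasting *Hsp90aa1* and *Hsph1* stood at -0.93 and -1.17 in WT and at -0.02 and 0.03 in WT/Y657* mice, and with refeeding *Hsp90aa1* stood at 1.14 and 1.15.

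The genotypes were then compared within each state. In fed mice 2 of the 9 genes were called, against 2.37% of all genes, and both were lower in WT/Y657* mice. *Hsp90aa1* was 1.76-fold lower (log2 difference -0.81, SE 0.17, adjusted p = 0.012), with 4 of 6 mutant mice below every WT mouse. *Hsph1* was 1.95-fold lower (-0.96, SE 0.25, adjusted p = 0.033), with 5 of 6 below every WT mouse. *Hspd1* was close to the threshold (-0.28, SE 0.08, adjusted p = 0.058). The *Hsph1* call was lost without any 1 of 6 mice (WT_847, WT_849, WT_856, MT_866, MT_868 or MT_869), with differences down to -0.83 and adjusted p of up to 0.105, while that of *Hsp90aa1* was kept in all 12 such fits.

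These fed differences moved with the mouse numbers. In mice WT_847 to WT_850, all WT, *Hsp90aa1* was at 241 to 323 CPM, and in mice MT_866 to MT_869, all WT/Y657*, at 102 to 121. In the run from WT_856 to WT_860, which holds both genotypes, it was at 188 and 260 CPM in the 2 WT mice and at 113, 192 and 219 in the 3 mutant mice, which overlap. *Hspa1b* was high in both genotypes within this run, except in MT_857. It was at 15.6 and 20.8 CPM in WT_860 and WT_856, at 14.8 and 16.4 in MT_858 and MT_859, and at 4.40 in MT_857. Outside the run, fed WT mice lay between 3.93 and 6.20 and fed mutant mice between 2.44 and 2.52. With the run of mouse numbers as a covariate, the fed genotypes are compared only between these 2 WT and 3 mutant mice. The fed difference was then -0.36 for *Hsp90aa1* and -0.57 for *Hsph1* (adjusted p = 1.0 for both). In that fit 0 of 13945 genes were called by edgeR (651 at an unadjusted p under 0.05). Without the 5 mice from WT_856 to WT_860, left out after seeing the data, genotype and number run coincide. The differences were then -1.26 for *Hsp90aa1* (adjusted p = 5.3e-05), -1.68 for *Hsph1* (2.4e-05) and -0.58 for *Hspa8* (0.015). Calls also rose over all genes, to 1664 of 14461 (11.5%), against 2.37% in the reported fit. Genotype and mouse number cannot be told apart in the fed mice.

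**Figure D4:**
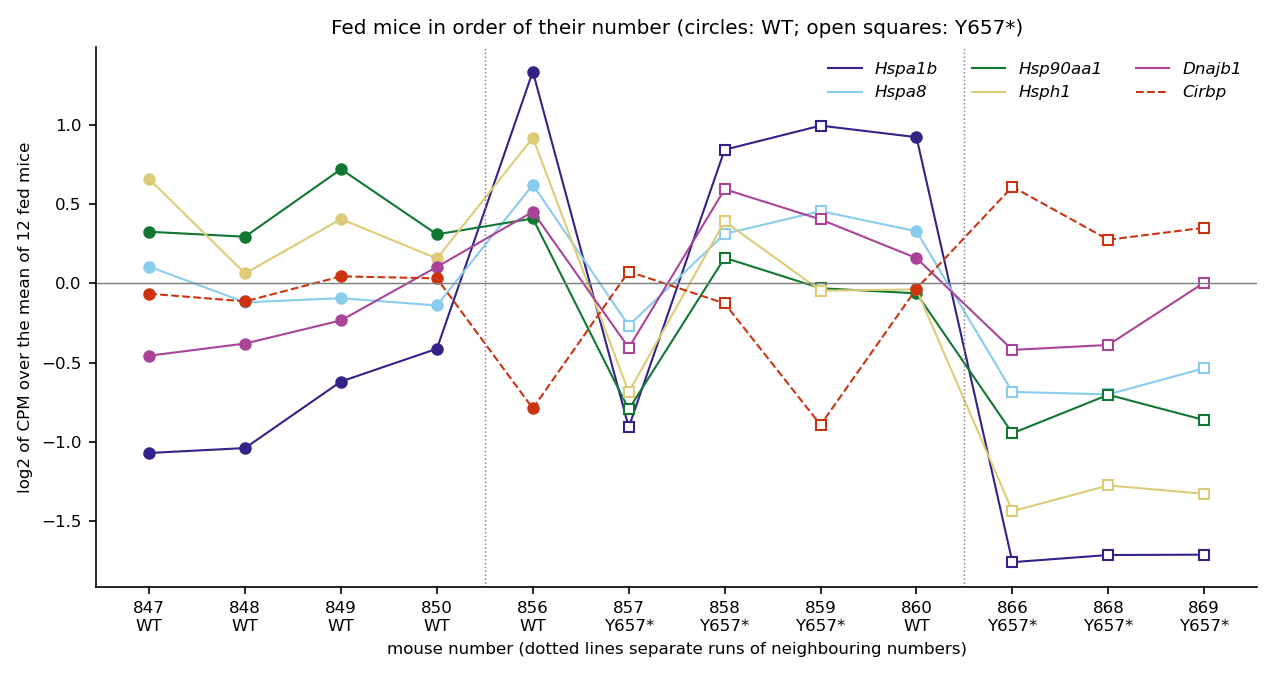
Log2 CPM of 6 genes in the 12 fed mice in order of mouse number, each gene relative to its mean over those mice (y axis), with filled circles for WT and open squares for WT/Y657* mice, and dotted lines between runs of neighbouring numbers. The *Hspa1b* line is high in 4 of the 5 mice of the middle run, in both genotypes, and *Cirbp* (dashed) is lowest in WT_856 and MT_859 (5.27 and 4.90 CPM).

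In fasted mice 2 of 9 genes were called, against 13.1% of all genes, and both were higher in WT/Y657* mice. *Hspe1* was 1.53-fold higher (log2 difference 0.61, SE 0.10, adjusted p = 7.6e-05). The difference was 0.72 among the lower and 0.49 among the higher mouse numbers, and it was called whichever mouse was left out. *Rbm3* was 1.31-fold higher (0.39, SE 0.13, adjusted p = 0.035), with 4 of 6 mutant mice above every WT mouse. That call was lost without any 1 of 9 mice (WT_807, WT_824, WT_918, WT_919, WT_920, MT_826, MT_827, MT_922 or MT_923), with differences down to 0.30 and adjusted p of up to 0.118. In refed mice 0 of 9 genes were called by edgeR, against 0.0287% of all genes (4 genes, and 1329 at an unadjusted p under 0.05). *Cirbp* was at an unadjusted p of 0.019 there (-0.38, adjusted p = 0.40), with 5 of 6 mutant mice below every WT mouse.

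Whether the fasting response itself differed between genotypes was tested as an interaction. It was called for 3 of 9 genes, against 4.35% of all genes. The response of WT/Y657* mice was higher by 0.75 on the log2 scale for *Hspe1* (SE 0.14, adjusted p = 0.0018), by 0.91 for *Hsp90aa1* (SE 0.24, adjusted p = 0.028) and by 1.20 for *Hsph1* (SE 0.35, adjusted p = 0.043). *Hspe1* was called whichever mouse was left out. *Hsp90aa1* was not called without any 1 of 7 mice (fed WT_849, MT_857, MT_868 or MT_869, fasted WT_825, WT_918 or MT_826), with values down to 0.82, and *Hsph1* in 15 of 24 such fits, with values down to 1.07. With mouse number as a covariate none of the 3 passed, at 0.72 for *Hspe1* (adjusted p = 0.054), 0.45 for *Hsp90aa1* (0.52) and 0.81 for *Hsph1* (0.30). In that fit 0.782% of all genes were called. The refeeding response differed for 0 of 9 genes by edgeR, against 2.06% of all genes, and *Hspe1* was nearest to the threshold (-0.43, SE 0.14, adjusted p = 0.094).

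The mice of a group also varied together. After group means were removed, the log2 levels of *Hspa1b* and *Dnajb1* correlated at r = 0.87 over the 36 mice, those of *Hspa1b* and *Hspa8* at 0.81, and those of *Hsp90aa1* and *Hsph1* at 0.80. *Cirbp* ran against the cytosolic chaperones, at r = -0.70 with *Hspa1b*, -0.69 with *Hspa8*, -0.62 with *Hsph1*, -0.59 with *Dnajb1* and -0.57 with *Hsp90aa1*. Without the 5 fed mice from WT_856 to WT_860 (31 mice left) these 5 values were -0.48, -0.35, -0.34, -0.38 and -0.48. The chaperone pairs named first were then at 0.80, 0.57 and 0.72, in the same order. *Rbm3* followed *Cirbp* (0.48) and *Hspe1* (0.52, but -0.01 among fed mice alone). *Hspd1* and *Hspe1*, which stand head to head, correlated at 0.26. These are descriptions, since the points share libraries, depth and scaling.

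**Figure D5:**
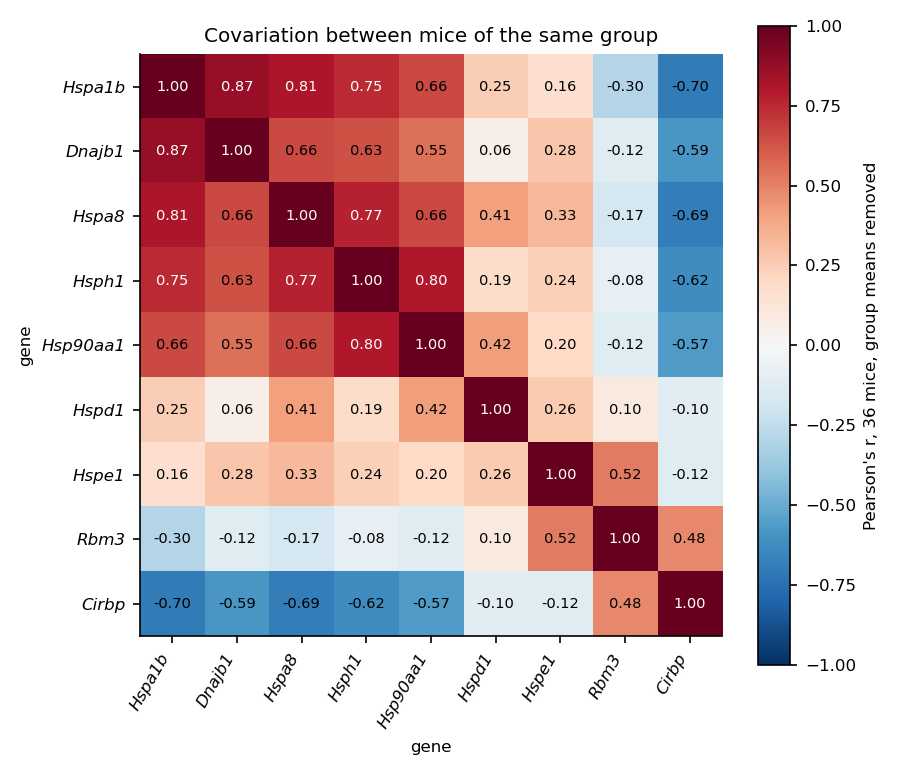
Pearson r between the log2 levels of the 9 genes tested over 36 mice, after the mean of each group was removed. The cytosolic chaperones correlate positively with each other, up to 0.87, and *Cirbp* negatively with each of them, down to -0.70.

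Among all other genes tested, the 2 that varied most like *Hsp90aa1* by the same measure were *Hsp90ab1* (r = 0.86), the constitutive HSP90, and *Stip1* (0.82), which links HSP70 to HSP90. *Hsph1* was the third, followed by the co-chaperone *Dnaja1* (0.78), the small heat shock gene *Hspb1* (0.76) and the HSP90 activator *Ahsa1* (0.75). For *Cirbp* the closest were *Zfp956* (0.69), *Mbip* (0.68), *Gabbr2* (0.67), *Tm4sf1* (0.66) and *Rrp36* (0.66). *Rbm3* ranked 157 for *Cirbp*, and *Hspa1b* ranked 13942, close to the end.

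Other cytosolic chaperones, a list of 30 genes (31 rows tested), were counted in the same fits. With fasting 14 fell and 2 rose in WT mice, where 32% of all genes were called, among them *Hspa4l*, an HSP110 relative (-1.28), *Stip1* (-0.85) and the HSP90 immunophilin *Fkbp4* (-0.73). In WT/Y657* mice 9 fell and 2 rose (32.9% of all genes called), with *Fkbp4* at -0.71 and the glucocorticoid-induced *Fkbp5* at 1.81, while *Hsp90aa1* was at -0.02. With mouse number as a covariate 4 fell and 1 rose there (13.1% of all genes called). With refeeding 16 rose and 1 fell in WT mice (*Stip1* 0.97, *Fkbp4* 0.89, 30.2% of all genes called) and 18 rose and 1 fell in WT/Y657* mice (*Fkbp4* 1.19, *Stip1* 1.08, 31.3% of all genes called). The median log2 changes were -0.27 and -0.05 for fasting and 0.26 and 0.39 for refeeding. In fed mice 7 were lower in WT/Y657* mice and 0 higher (2.37% of all genes called), among them *Hspa4l* (-0.76, adjusted p = 0.0013) and *Stip1* (-0.48, adjusted p = 0.020). Between fasted genotypes 1 was higher and 1 lower in WT/Y657* mice (13.1% of all genes called). *Fkbp5* was higher (mean 83.6 against 37.3 CPM, log2 difference 1.16, adjusted p = 0.00014), and *St13* was lower (-0.19, adjusted p = 0.042). The fasting response differed for 5, all higher in WT/Y657* mice (4.35% of all genes called). With mouse number as a covariate both the fed count and this one were 0 (0% and 0.782% of all genes called).

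The TRiC chaperonin, which folds actin and tubulin in the cytosol, rose with refeeding in all 8 subunits in both genotypes, for example *Cct3* (0.65 in WT and 0.67 in WT/Y657* mice) and *Cct7* (0.57 and 0.70), where 30.2% and 31.3% of all genes were called. With fasting 4 of 8 fell in WT mice (32% of all genes called). In WT/Y657* mice 1 fell and 1 rose (32.9%), and 0 were called with mouse number as a covariate (13.1%). Of 5 genes of heat shock factors and their partners, 0 were called in fed mice between genotypes (2.37% of all genes called). In fasted mice 1 was, *Hsf2bp* (1.93, adjusted p = 0.0083, 13.1% of all genes called). Its mean was only 1.32 CPM in WT/Y657* and 0.344 in WT mice, so the value is imprecise. On fasting 0 were called in WT and 1 in WT/Y657* mice, and on refeeding 1 in each genotype. Refed against fed it was 2 in WT and 0 in WT/Y657* mice (27.5% and 26.1% of all genes called).

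Other mitochondrial chaperones and proteases (16 genes) were counted likewise. With fasting 5 rose and 0 fell in WT mice, where 32% of all genes were called, with *Grpel2*, an exchange factor of mitochondrial HSP70, at 1.45, the stress transcription factor gene *Atf5* at 1.31 and the protease subunit *Clpx* at 1.18. In WT/Y657* mice 6 rose and 2 fell (*Grpel2* 1.37, 32.9% of all genes called), and with mouse number as a covariate 2 rose and 0 fell (13.1%). *Grpel2* fell with refeeding in both genotypes (log2 change -1.22 in WT and -1.56 in WT/Y657* mice). In fasted mice *Lonp1* (-0.32, adjusted p = 0.0010) and *Trap1* (-0.24, adjusted p = 0.048) were lower in WT/Y657* mice, and 0 of the 16 were higher (13.1% of all genes called).

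Of 19 RNA-binding and splicing genes tested, 11 rose and 0 fell with refeeding in WT mice (*Srsf3* 0.69, *Srsf2* 0.55), where 30.2% of all genes were called, and 5 rose and 1 fell in WT/Y657* mice (31.3%). In fasted mice 6 were higher in WT/Y657* mice and 0 lower (13.1% of all genes called), among them the splicing kinase genes *Clk4* (0.44, adjusted p = 0.0077) and *Clk1* (0.42, adjusted p = 0.0015). The refeeding response differed for 3 of them, all lower in WT/Y657* mice, with *Clk1* at -0.67 (adjusted p = 0.0041), against 2.06% of all genes.

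Markers of other liver cells moved with some of these groups. Of all genes, 2.37% were called between fed and 13.1% between fasted genotypes. Fasting called 32% in WT and 32.9% in WT/Y657* mice, and refeeding 30.2% and 31.3%. Summed lymphocyte markers (6 genes) were at 0.816 to 2.80 CPM in fed WT and 2.34 to 9.90 in fed WT/Y657* mice, and 2 of the 4 tested were called higher. Summed Kupffer cell and macrophage markers (5 genes, 0 called) were at 166 to 236 and 158 to 561 CPM, and summed stellate cell and fibroblast markers (6 genes, 1 called) at 318 to 486 and 458 to 636. In fasted mice 2 of the 6 stellate markers were called higher in WT/Y657* mice, at 373 to 446 CPM summed in WT and 428 to 642 in WT/Y657* mice. With feeding state, 3 of 6 endothelial markers rose on fasting in WT and 0 in WT/Y657* mice, and on refeeding 3 fell in WT and 4 in WT/Y657* mice. Their sum was at 382 to 485 CPM in fed, 483 to 535 in fasted and 379 to 494 in refed WT mice, and at 439 to 522, 440 to 551 and 365 to 407 in WT/Y657* mice. Of the 6 stellate markers, 2 fell on fasting in WT and 3 in WT/Y657* mice, and on refeeding 1 rose and 1 fell in each genotype. On fasting in WT mice 2 of the 4 lymphocyte markers tested rose. The part of these cells in the results above was not tested. Of 12 clock genes and 7 immediate early genes, 0 were called between genotypes in fed mice, against 2.37% of all genes. With so few genes, 0 cannot be told apart from that share. In fasted mice 1 clock gene was lower in WT/Y657* mice. Fasting raised 2 clock genes and lowered 1 in WT, and raised 2 and lowered 3 in WT/Y657* mice. On refeeding 2 rose and 3 fell in WT, and 4 rose and 3 fell in WT/Y657* mice. Of the immediate early genes, 1 rose on fasting in WT mice. On refeeding 4 fell in WT and 1 in WT/Y657* mice.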

How the data were processed

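Liver RNA of 36 mice was sequenced by the submitters as stranded total RNA (50 base single reads). The deposited table holds estimated counts per gene, made by the authors and not normalized. The submitters' processing notes name featureCounts, Cuffdiff, SAMtools, edgeR and mm9, while 65.9% of the genes found in GENCODE M21 start or end as on GRCm38, so coordinates are given on GRCm38. Whether counting used strand is not given in the sources used here. Of the nonzero counts 3.64% were not whole, and these were rounded. A second deposited table of fitted group means was not used.

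Groups and mouse numbers came from the labels. Genes were filtered with filterByExpr (13945 of 38283 kept), scaled by TMM (factors 0.914 to 1.09) and tested in 1 fit over 6 groups with edgeR 4.0.16 quasi-likelihood tests (R 4.3.3, robust, common biological coefficient of variation 0.181), with Benjamini-Hochberg adjustment over all genes and a threshold of 0.05. Each mouse is 1 sample. Alternatives were DESeq2 1.42.0, limma-voom (limma 3.58.1), other scalings and filters, mouse number (as its run) as a covariate, only the groups compared, and each mouse left out. On simulated counts for the fasted genotype comparison (13945 genes), 54 of 99 genes changed by 0.5 on the log2 scale and 69 of 99 changed by 1 were called, with 6 of 13604 unchanged genes. Correlations used log2 CPM with a prior count of 2. The 10 genes and the lists were chosen with earlier results of these data known. Genes outside the 10 were named as those with the smallest adjusted p of each list, or the highest correlation.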

Additional observations from a re-analysis of the deposited data

Results flagged for a closer look

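In 2 of the 60 sets of 1 gene in 1 group, 1 mouse lay far from the other 5, where chance gives about 1 in 20. *Cirbp* was at 5.27 CPM in fed mouse WT_856, below the next mouse at 8.41. It was at 13.2 CPM in refed mouse MT_810, above the next at 9.98. The fasting response differed between genotypes, by the interaction test, for *Hsp90aa1* (0.91 on the log2 scale), *Hspe1* (0.75) and *Hsph1* (1.20), each higher in WT/Y657* mice.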

How the results depend on the processing

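No log2 change that was called, in the reported fit or in an alternative, had the opposite sign in the other. Some that were called in neither did change sign. *Hspa1b* between refed and fed WT/Y657* mice went from -0.68 to 0.37 with mouse number as a covariate and 0.82 without the 5 fed mice from WT_856 to WT_860, and its fasting change in WT mice from -0.28 to 0.56 and 0.65. *Rbm3* between fed genotypes went from -0.10 to 0.01 with library size alone. Shares of all genes called in the same fit are given in brackets, but not for fits with only the groups compared. The counts from those fits therefore do not show whether these genes or all genes lost calls. Of the 9 genes tested, the number called between fed genotypes was 2 (2.37%). It was 0 with mouse number as a covariate (0%), 0 with only the groups compared in the fit and 1 with no filter on low counts (0.819%). Between fasted genotypes it was 2 (13.1%), and 1 with limma-voom (12.7%), with no filter (5.65%) and with only the groups compared. For fasting in WT/Y657* mice it was 4 (32.9%), against 2 with the covariate (13.1%). It was 7 without the 5 fed mice from WT_856 to WT_860 (22.1%), an alternative chosen after seeing the data. Between refed and fed WT/Y657* mice it was 5 (26.1%), and 1 with the covariate (6.51%). For the genotype difference in the fasting response it was 3 (4.35%), against 0 with the covariate (0.782%) and 1 with no filter (1.53%). The cause was not tested. DESeq2, RLE scaling and a minimum of 10 counts in every library left each count within 1.5 times of its value.

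With each mouse left out in turn, the counts ranged from 1 to 3 (fed genotypes), 1 to 2 (fasted), 0 to 0 (refed), 6 to 6 and 3 to 5 (fasting, WT and WT/Y657*), 5 to 7 and 4 to 5 (refeeding), 3 to 6 and 4 to 6 (refed against fed), 1 to 4 (difference in fasting) and 0 to 2 (difference in refeeding). Shares of all genes are not given for these ranges, so they do not show whether these genes or all genes changed calls. Scaling by library size alone moved the median log2 difference of all genes between fed genotypes by 0.11, and called 756 genes (672 higher) in place of 330 (169 higher). No paired analysis was possible because the groups share no mouse number. Depth limits *Hspa1a*, which had at most 30 reads in a mouse.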
